A study of Mus musculus with 18 samples.

Results

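The colon of germ-free mice lacking both Lao1 and Il4i1 was profiled by mRNA sequencing after 24 hours of dextran sulfate sodium (DSS) in the drinking water. The comparison described here uses 6 of the 18 libraries of the study: 3 from double knockout (DKO, Lao1-/- Il4i1-/-) males given 2.5% DSS and 3 from DKO males given sterile water. The other libraries come from wild-type and Lao1-/- males on the same 2 treatments, with 3 libraries in each of the 6 groups. All animals were germ-free C57BL/6J males aged 8 weeks, so neither a resident microbiota nor female mice entered any group, and both knockout genotypes lack Lao1. Samples were chosen by their labelled genotype and treatment, and the 3 libraries of a group are labelled as replicates A, B and C. The p-values below rest on the spread between replicates within groups, which the main test estimated from all 6 groups together.

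The products of Lao1 and Il4i1 are flavoenzymes that oxidize L-amino acids, secreted or held in lysosomes; they convert amino acids to keto acids with release of hydrogen peroxide and ammonia. DSS is a sulfated polysaccharide that injures the colonic epithelium and loosens the mucus layer, and days of exposure produce colitis, so a single day samples the response before overt inflammation usually develops. The mucus is made by goblet cells, which secrete the gel-forming mucin Muc2 together with gel-associated proteins such as Fcgbp, Clca1, Zg16 and Tff3. Absorptive colonocytes line the surface between them and take up sodium, water and short-chain fatty acids.

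The oxidase genes themselves were scarcely detected. Il4i1 (chr7:44836288-44840809, GRCm38) had 0 counts in all 6 DKO libraries, and the overlapping gene Il4i1b (chr7:44816370-44840804) had 0 in 5 of them and 12 in DKO DSS replicate B. Because the genes overlap and reads can be split between them, their counts were also added. The sum ranged from 0 to 12 in DKO colon, against 25 to 57 in wild-type and 12 to 66 in Lao1 knockout colon. The sum of DKO DSS replicate B thus equals the lowest value of the Lao1 knockout libraries, while the other 5 DKO libraries lie below every library with an intact Il4i1. Lao1 gave 0 to 10 counts in DKO colon and 0 to 4 in wild-type colon, which is too few in either genotype to check its deletion.

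DKO DSS libraries were deeper than DKO water libraries. Total counts were 27556517 to 31018967 with water and 32217028 to 32547313 with DSS, and genes with at least 1 count numbered 22326 to 22898 and 23065 to 23223. Neither measure overlapped between the groups (exact two-sided permutation test, p = 0.1, the smallest that 3 against 3 can give). The share of counts on the 13 mitochondrially encoded mRNAs was 15.9%, 10.5% and 20.7% with water and 14.3%, 23.6% and 20.6% with DSS, a difference of 3.81 percentage points that did not pass an exact permutation test (p = 0.5). The difference was 1.22 points without water B, 1.75 without DSS B, 6.32 without water C and 6.43 without DSS A. DKO water replicate A stood apart from the other 5 libraries on the first principal component of log CPM (35.0% of variance), at -64.5, against values of -4.22 to 41.9.

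Among the 18848 genes tested, 3 passed an adjusted p of 0.05 in DKO colon and all 3 were higher with DSS (0.0159% of genes; 0% were called lower). These were Fer1l6, Bcas1 and 9530053A07Rik. The test was edgeR's quasi-likelihood test with Benjamini-Hochberg adjustment, fitted to all 18 libraries. At an unadjusted p under 0.05, 781 genes were higher (4.14%) and 1026 were lower (5.44%). Levels scaled to library size (CPM) of the groups did not overlap for 1582 genes that were higher with DSS (8.39%) and 1959 that were lower (10.4%). The median log2 fold change over all tested genes was 0.02, with a 5th to 95th percentile range of -0.52 to 0.79. The number of calls depended on the fit, and the set of genes tested differed between fits as well. DESeq2 called 37 genes higher and 144 lower among the 11322 to which it gave an adjusted p. With the 6 DKO libraries alone, edgeR called 13 higher and 20 lower among 17958. Without 1 library, edgeR called 1 gene when DKO water B or DKO DSS A, B or C was left out, and 2 when DKO water A or C was.

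Fer1l6, a member of the ferlin family of membrane proteins with C2 domains, lies at chr15:58510048-58665087. Its level was 33.8, 28.5 and 27.4 CPM in water replicates A, B and C, and 75.8, 73.5 and 63.0 CPM in the DSS replicates. Every DSS library lay above every water library, and the lowest DSS value was well clear of the highest water value. The log2 fold change was 1.24 ± 0.132 (SE; edgeR adjusted p = 5.84e-04, n = 3 per group). With 1 DKO library removed at a time, Fer1l6 passed in 6 of 6 fits. Of the other 3 ferlin genes tested, Dysf, Myof and Fer1l4, none had an unadjusted p under 0.05, and Fer1l5 and Otof stayed below 1 CPM in all 6 libraries.

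Bcas1 (chr2:170343973-170427911) is best known as a gene of myelinating cells that is also transcribed in gut epithelium, where it is found in goblet cells. Its CPM was 64.9, 53.8 and 54.0 with water and 108, 103 and 101 with DSS. The groups were separate, with little spread within the DSS group (104 ± 3.90 CPM, SD, n = 3). The log2 fold change was 0.85 ± 0.121 (SE; edgeR adjusted p = 0.015). It passed in 1 of the 6 fits without a DKO library, the fit without water replicate A, and the adjusted p reached 0.113 without DSS replicate A.

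The third called gene, 9530053A07Rik (chr7:28129466-28164811), carries FCGBP as a RefSeq synonym and lies 8601 bp downstream of Fcgbp (chr7:28071236-28120864). Fcgbp encodes a large protein of the mucus gel with repeated von Willebrand D domains. Reads from one copy could be assigned to the other, so the values of the pair are uncertain with respect to each other. 9530053A07Rik had 1.88, 2.71 and 2.55 CPM with water and 13.3, 9.85 and 8.96 CPM with DSS. Its log2 fold change was 2.16 ± 0.315 (SE; edgeR adjusted p = 0.015), and it passed in 0 of the 6 fits that left out a DKO library, where its adjusted p ranged from 0.0501 to 0.220. Fcgbp had 831, 872 and 636 CPM with water and 2109.7, 1828 and 1846 CPM with DSS, again with no overlap. Its log2 fold change was 1.31 ± 0.245, at an edgeR adjusted p of 0.0777.

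Since the neighbouring pair had higher values together, the 250 bases before the annotated start of each gene are shown, from RefSeq on GRCm38.p6, both on the plus strand. Capitals mark the 2 runs of at least 10 bases that the promoters share in the same order, of 10 and 14 bases.
Fcgbp, chr7:28070986-28071235: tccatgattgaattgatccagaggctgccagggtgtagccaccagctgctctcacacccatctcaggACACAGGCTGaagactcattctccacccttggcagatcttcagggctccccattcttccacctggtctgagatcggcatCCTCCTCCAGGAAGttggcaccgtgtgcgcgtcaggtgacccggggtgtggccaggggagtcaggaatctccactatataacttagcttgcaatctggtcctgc
9530053A07Rik, chr7:28129216-28129465: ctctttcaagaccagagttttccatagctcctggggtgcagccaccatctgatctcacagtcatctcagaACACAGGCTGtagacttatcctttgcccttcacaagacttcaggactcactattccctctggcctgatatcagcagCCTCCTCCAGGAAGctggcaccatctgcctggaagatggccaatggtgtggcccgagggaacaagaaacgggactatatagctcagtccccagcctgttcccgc
The run of 14 bases begins 104 bases before the start in both genes, and the run of 10 begins 183 bases before the start of Fcgbp and 180 before that of 9530053A07Rik. Both windows were searched on both strands for 6 short motifs, none of which contains another. The E-box CAGCTG, which Atoh1-type factors read, occurs in Fcgbp 208 bases before the start and in 13% of the 32851 promoters of the same length. The glucocorticoid receptor core AGAACA occurs in 9530053A07Rik 183 bases before the start, where it overlaps the shared run, and in 16.1% of promoters. Found in neither window were the clock E-box CACGTG, present in 6.02% of promoters, and the forkhead motif TGTTTAC, present in 3.17%. The same holds for the ETS motif CCGGAT, present in 4.94% of promoters, and for the Cdx motif TTTATG, present in 10.8%.

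**Figure D1:**
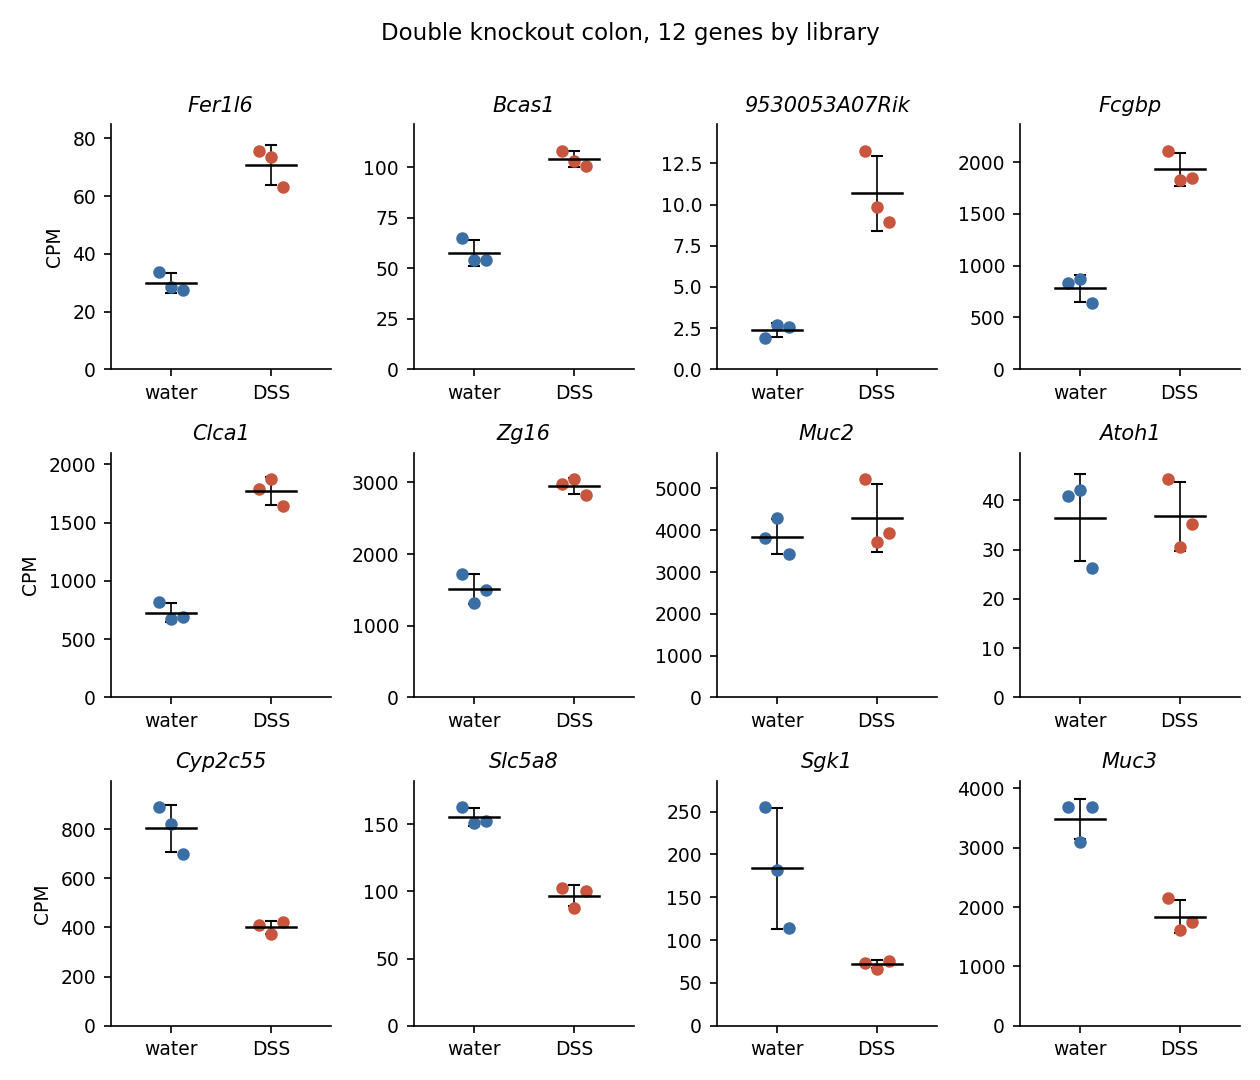
CPM (y axis, from 0) of 12 genes in the 3 water and 3 DSS libraries of double knockout colon; points are libraries in the order A, B, C, lines are means and bars are SD. The groups are separate for Fer1l6, Bcas1, 9530053A07Rik, Fcgbp, Clca1 and Zg16 (DSS above) and for Cyp2c55, Slc5a8, Sgk1 and Muc3 (DSS below), while Muc2 and Atoh1 overlap.

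Several secreted products of goblet cells had higher values with DSS, while others did not. Muc2, Agr2, Klk1, Spink4, Retnlb and the goblet cell transcription factors overlapped between groups. Retnlb had 497, 169 and 176 counts with water and 369, 136 and 184 with DSS. All 22 genes of the goblet cell list were tested. Of these, 1 passed the adjusted threshold (Bcas1), 9 were higher at an unadjusted p under 0.05 and 0 were lower, and the same 9 did not overlap between groups. Over all genes, 4.14% were higher at that p and 8.39% were higher without overlap. Both counts come from the same genes and libraries, so the absence of overlap is not separate support. The list's median log2 fold change was 0.41, beside 0.02 over all genes. In fits that left out 1 DKO library, 8 to 10 members were higher at an unadjusted p under 0.05 and the median was 0.23 to 0.54. The list's median was -0.27 in wild type and 0.16 in Lao1 knockout. In wild type 1 member was called higher and 5 lower, beside 6.29% and 6.59% of all genes. The 5 became 1 without wild-type water A or B. The list was drawn up with results of these data known.

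Clca1, a metalloprotease that processes the mucus network, had 820.5, 675 and 689.8 CPM with water and 1791, 1877 and 1641 CPM with DSS. Zg16, a lectin that binds Gram-positive bacteria, had 1728, 1311 and 1499 CPM with water and 2975, 3049 and 2819.9 CPM with DSS. Tff3, the trefoil peptide of goblet cells, had 345, 386 and 275 CPM with water and 628, 748 and 677 CPM with DSS. None of these 3 groups of values overlapped, yet the edgeR adjusted p-values were 0.117 for Clca1, 0.306 for Zg16 and 0.176 for Tff3. All 3 passed in DESeq2 and in edgeR on the 6 DKO libraries alone, as did Fcgbp. None of these passed in limma voom, which called the same 3 genes as edgeR on all libraries. Capn9, a calpain of the digestive tract, and Kcnma1, a potassium channel, had log2 fold changes of 0.84 ± 0.217 and 0.70 ± 0.184 (SE), also without overlap. Ang4, an antimicrobial ribonuclease, was scarce at 1.75, 0.255 and 1.35 CPM with water and 5.17, 10.4 and 2.28 CPM with DSS.

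The 12 higher genes chosen by p also included Rab27a, Sytl2, Rep15 and St6gal1. Rab27a, a small GTPase that docks secretory vesicles, had 25.4, 22.9 and 21.2 CPM with water and 38.7, 38.3 and 33.3 CPM with DSS (log2 fold change 0.67 ± 0.122, edgeR adjusted p = 0.0777). Sytl2, which encodes a synaptotagmin-like Rab27 effector, had 49.9, 38.9 and 42.4 CPM with water and 63.2, 68.0 and 67.4 CPM with DSS (adjusted p = 0.0965). Rep15, a Rab15 effector, had 16.1, 15.8 and 10.9 CPM with water and 26.2, 33.1 and 30.2 CPM with DSS (adjusted p = 0.0947). Genes chosen by p had to be without overlap between groups, so the separation of these 3 was fixed by the choice. None of the 3 passed the adjusted threshold. Of the 12 higher genes chosen by p, 12 passed in DESeq2, 7 in edgeR on the 6 DKO libraries and 2 in limma voom. Rep15 was among the 7, while Rab27a and Sytl2 were not. The same libraries served for the choice and for these fits, so the passes are not separate support. St6gal1, a sialyltransferase of N-glycans, had 18.4, 18.2 and 11.9 CPM with water and 33.7, 29.2 and 29.4 CPM with DSS.

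Muc2 had 3818, 4287 and 3438 CPM with water and 5228, 3721 and 3921 CPM with DSS, a log2 fold change of 0.16 ± 0.232 (SE; adjusted p = 0.877). Atoh1, the factor that commits cells to the secretory lineage, had 40.9, 42.2 and 26.3 CPM with water and 44.4, 30.6 and 35.2 CPM with DSS. Spdef, which drives goblet cell maturation, had a log2 fold change of -0.10 ± 0.218. The water and DSS values of Muc2, Atoh1 and Spdef overlapped. In bulk tissue a change in the number of cells of a type and a change in RNA per cell cannot be told apart.

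Of 27 enzymes that glycosylate mucins, 0 were higher and 7 lower at an unadjusted p under 0.05, none past the adjusted threshold, and the list's median was -0.04. Over all genes, 5.44% were lower at that p. The 7 became 2 without water A and 4 without DSS B, and the median was -0.25 without DSS A. B4galnt2, which adds the terminal sugar of the Sda antigen, had 774, 812 and 806 CPM with water and 591, 419.5 and 495 CPM with DSS. The transmembrane mucin Muc3, found on the surface of absorptive cells, had 3687, 3099 and 3686 CPM with water and 2155, 1608 and 1753 CPM with DSS. Muc3 had a log2 fold change of -0.92 ± 0.199 and an edgeR adjusted p of 0.125, with no overlap between groups. Muc4, another transmembrane mucin, went the other way, with 1097, 1341 and 1281 counts with water and 2700, 1847 and 1917 counts with DSS. Of 8 mucin genes tested, 1 was higher and 1 lower at an unadjusted p under 0.05, beside 4.14% and 5.44% of all genes.

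**Figure D2:**
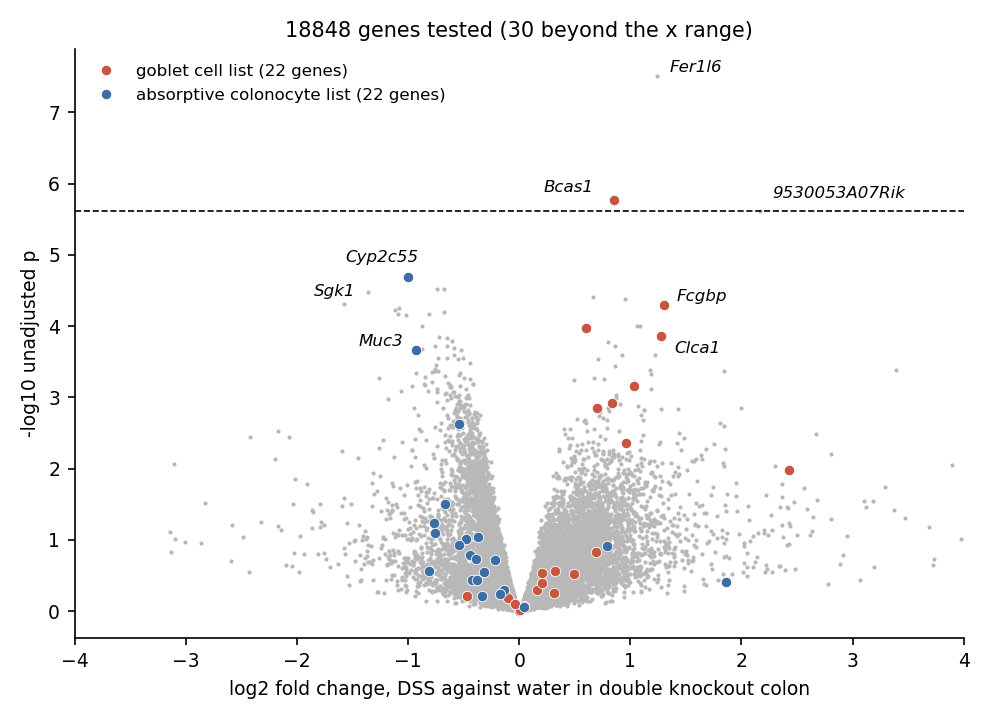
Each grey point is 1 of the 18848 genes tested, at its log2 fold change (x axis, DSS against water in double knockout colon, 30 genes beyond -4 to 4 not drawn) and -log10 of its unadjusted edgeR p (y axis); red points are the goblet cell list and blue points the absorptive colonocyte list. The dashed line is the largest p that passed the adjusted threshold; Fer1l6, Bcas1 and 9530053A07Rik lie on or above it, Fcgbp and Clca1 lie to the right below it, and Cyp2c55, Sgk1 and Muc3 lie to the left.

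Genes of absorptive colonocytes gave a list median below 0. Of 22 tested, 0 were called; 0 were higher and 4 were lower at an unadjusted p under 0.05, and 11 lower and 1 higher did not overlap between groups. Over all genes, 5.44% were lower at that p and 10.4% were lower without overlap. The list's median log2 fold change was -0.41, and it ranged from -0.51 to -0.33 when 1 DKO library was left out. The summed CPM of the list was 28749, 26505 and 30140.2 with water and 23491, 20154 and 21360.3 with DSS. These sums did not overlap, and the summed CPM of the goblet cell list did not overlap either, at 7918 to 9377 with water and 12639 to 15084 with DSS.

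Cyp2c55, a cytochrome P450 of the colonic surface epithelium, had the smallest p among lower genes. Its CPM was 890.2, 821 and 701 with water and 409, 372 and 422 with DSS (log2 fold change -1.004 ± 0.174, SE; edgeR adjusted p = 0.0777). Slc5a8, the sodium-coupled transporter of short-chain fatty acids, had 163, 151 and 152 CPM with water and 103, 88.0 and 100.3 CPM with DSS, at the same adjusted p of 0.0777. Cyp4f14, a fatty acid and leukotriene hydroxylase, had 482, 536 and 483 CPM with water and 309.7, 277 and 313 CPM with DSS. All 3 had small spread within groups, and separate groups, as the choice by p required. None passed the threshold in edgeR on all libraries. All 3 passed in DESeq2 and in edgeR on the 6 DKO libraries alone. Of the 12 lower genes chosen by p, 12 and 8 passed in these fits and 0 in limma voom. These fits reuse the libraries in which the genes were chosen.

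Genes of sodium uptake and its hormonal control included 6 of 13 tested that were lower and 1 that was higher at an unadjusted p under 0.05, beside 5.44% and 4.14% of all genes. The 6 became 3 without DSS B and 4 or 5 without any other DKO library. Sgk1, the kinase that aldosterone and glucocorticoids induce and that raises sodium channel activity, had 255, 182 and 114 CPM with water and 72.9, 66.3 and 76.0 CPM with DSS. The water values varied widely while the DSS values did not, and the groups were separate, as the choice by p required. The log2 fold change was -1.36 ± 0.244 (SE; edgeR adjusted p = 0.0777), and Sgk1 passed in 1 of the 6 fits without a DKO library, the fit without water replicate C. Its relative Sgk2, outside the list and likewise chosen by p, had 89.5, 75.8 and 62.2 CPM with water and 41.4, 36.9 and 34.1 CPM with DSS. The sodium-hydrogen exchanger gene Slc9a2 gave -0.78 ± 0.187 and the mineralocorticoid receptor gene Nr3c2 gave -0.61 ± 0.150 on the log2 scale, both without overlap. Hsd11b2, whose enzyme inactivates glucocorticoids in aldosterone target cells, was the member with higher values, at 91.8, 68.6 and 62.6 CPM with water and 129.6, 115 and 119 CPM with DSS.

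Some enzymes of detoxification and fatty acid oxidation had lower values. In the xenobiotic and retinoid list, 6 of 24 genes were lower and 1 higher at an unadjusted p under 0.05, with a median log2 fold change of -0.37. The 6 became 3 without water A and 4 to 8 without any other DKO library, and 5.44% of all genes were lower at that p. Aldh1a1, a retinaldehyde dehydrogenase, had 489, 372 and 475 CPM with water and 289, 254 and 276 CPM with DSS. In the fatty acid oxidation list, 5 of 24 were lower and 0 higher, with a median of -0.24, and the 5 became 3 without water A or DSS B. Cpt1a, which admits long-chain fatty acids to mitochondria, had a log2 fold change of -0.63 ± 0.177. Acad11, an acyl-CoA dehydrogenase gene outside that list, was chosen by p, which required groups without overlap. It had 95.02, 95.9 and 93.7 CPM with water and 67.1, 48.9 and 65.0 CPM with DSS.

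Other genes with the smallest p-values on the lower side were Gbe1 (glycogen branching), Rtca (RNA 3' end processing), H1f2 (a linker histone), Akr1c14 (a steroid-reducing enzyme), Gda (guanine deaminase) and Nat8f4. Their log2 fold changes lay between -1.09 and -0.68, and their edgeR adjusted p-values were 0.0777 to 0.117. Their groups did not overlap, as the choice by p required. On the higher side, the remaining genes chosen by p were Igfbp5 and Gdf10, genes of secreted signalling proteins, Gem, a small GTPase gene, and Chga. Igfbp5 had 29.3, 26.3 and 25.8 CPM with water and 64.9, 50.1 and 42.8 CPM with DSS. Gdf10 had 7.33, 7.07 and 7.87 CPM with water and 15.7, 16.6 and 14.9 CPM with DSS. Both were separate between groups, again as the choice by p required.

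Ranked by fold change among genes of at least 1 CPM without overlap, several scarce genes with wide errors came first. Apoa4 and Apoa1, apolipoproteins of the small intestine and liver, had log2 fold changes of 2.68 ± 1.09 and 2.27 ± 1.02, from 0.226 to 1.23 CPM and 4.67 to 6.95 CPM with water. Sprr2b, a small proline-rich protein gene of stressed epithelia, had 7.06, 3.90 and 3.64 CPM with water and 0.843, 0.605 and 0.237 CPM with DSS. Among the other large differences, Pcdhgc4, Bhmt and Pcdhga5 were higher, at log2 fold changes of 1.86 to 2.22, and Creb3l3 and Apln were lower, at -1.45 and -1.26. None of these 8 genes had an adjusted p under 0.323.

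Of 15 crypt stem cell and Wnt target genes, 4 were lower and 0 higher at an unadjusted p under 0.05, among them the Wnt feedback gene Axin2, with 25.1, 31.2 and 22.95 CPM with water and 15.3, 15.7 and 15.7 CPM with DSS. The 4 became 1 without water B and 2 without water A or DSS B, beside 5.44% of all genes. Of 23 cell cycle genes, 0 met that p in either direction. Of 16 enteroendocrine genes, 5 were higher and 0 lower, led by Chga, a granin of hormone granules, at 69.7, 103 and 72.7 CPM with water and 134, 144 and 149 CPM with DSS. Chga had an edgeR adjusted p of 0.122. The 5 became 2 without water A, water C, DSS B or DSS C, beside 4.14% of all genes.

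Immediate early genes, which respond to growth factors and stress within minutes, included 5 of 18 that were higher and 0 lower at an unadjusted p under 0.05, beside 4.14% of all genes higher. Egr1 had 14.5, 12.7 and 29.4 CPM with water and 65.0, 41.0 and 54.9 CPM with DSS, and Junb had 66.1, 57.5 and 84.8 CPM with water and 113, 101 and 115 CPM with DSS. Both were separate between groups, with edgeR adjusted p-values of 0.366 and 0.302. Nr4a1, an orphan nuclear receptor gene, was highest in DSS replicate A, at 28.0 CPM against 7.07 and 5.41 in the other 2 and 2.81 to 6.01 with water. Without DSS replicate A the list's median moved from 0.29 to 0.12, with 3 members higher and 2 lower at that p. The median was 0.14 without water B, with 4 higher and 2 lower.

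Many inflammatory transcripts were near the detection limit. In the cytokine and chemokine list, 14 of 24 genes, including Il1b, Il6, Cxcl1 and Cxcl2, stayed below 1 CPM in all 6 libraries, and Il17a and Il22 had no counts. The summed level of the list was 62.8 to 72.5 CPM with water and 64.9 to 67.8 CPM with DSS, most of it from the epithelial chemokine Ccl28, at 51.1, 42.0 and 44.2 CPM with water and 35.9, 40.4 and 37.9 CPM with DSS. Of the 14 genes tested, 1 was higher at an unadjusted p under 0.05 (the alarmin Il33), beside 4.14% of all genes. Il33 had 1.27, 1.10 and 2.04 CPM with water and 4.18, 2.27 and 3.28 CPM with DSS. Neutrophil markers were below 1 CPM in all 6 libraries for 11 of 12 genes, S100a8 and S100a9 having no counts, and the summed level of the list was 0.984 to 1.16 CPM with water and 0.562 to 4.45 CPM with DSS. The 4.45 CPM was that of DSS replicate A, where Ly6g had 124 counts, against 0 in DSS replicates B and C. A count of 0 allows up to 0.0848 to 0.109 CPM in these libraries (3 counts), for counting error only.

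Markers of muscle, nerve and fat varied widely between the libraries of a group, and their summed levels overlapped between the groups. The summed smooth muscle list was 3483, 7312 and 7589 CPM with water and 5924, 9809 and 8582 CPM with DSS, lowest in water replicate A and overlapping between groups. The enteric neuron and glia list was likewise lowest in water replicate A, at 160.4 CPM, and highest in DSS replicate B, at 577 CPM. All 17 of its genes had a fold change above 0. Of these, 3 had an unadjusted p under 0.05, beside 4.14% of all genes higher at that p, and 0 were called. Without water replicate A the list's median moved from 0.53 to 0.26, and without DSS replicate B to 0.32. In either fit 0 members had an unadjusted p under 0.05. Adipocyte genes were high in DSS replicates A and C, at 488 and 589 CPM in sum, and lowest in DSS replicate B at 141, against 154 to 299 with water; Adipoq was 11.7 and 18.4 CPM in DSS A and C and 0.0605 in B. The part of muscle, nerve and fat in the epithelial differences was not tested. The intestinal transcription factor gene Cdx2 was at 215 to 339 CPM, while the distal colon genes were scarce, as Hoxb13 had no counts and Hoxa13 and Hoxd13 stayed below 1 CPM.

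**Figure D3:**
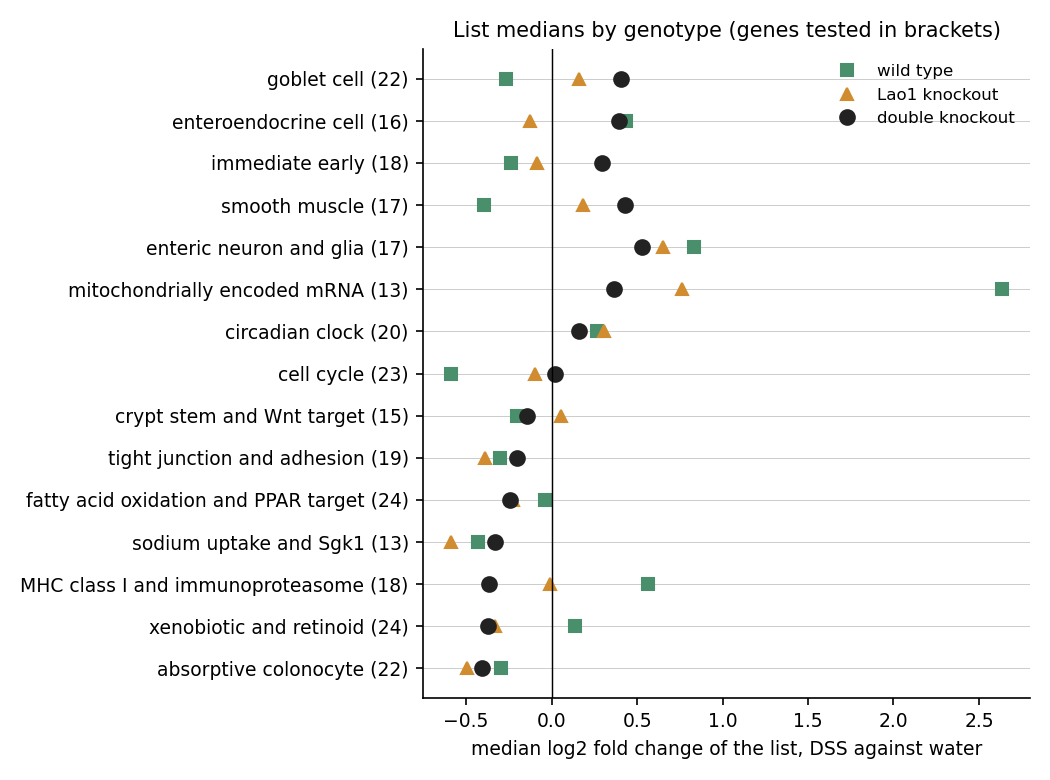
Median log2 fold change (x axis, DSS against water) of 15 gene lists (y axis, genes tested in brackets) in wild-type (squares), Lao1 knockout (triangles) and double knockout colon (circles). In double knockout colon the goblet cell list is at 0.41 and the absorptive colonocyte list at -0.41; the mitochondrial mRNA list is at 0.37 there and at 2.64 in wild type.

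The same treatment gave many more calls in wild-type colon, where 1186 genes were higher (6.29%) and 1242 lower (6.59%), than in Lao1 knockout colon, where 1 was higher (0.00531%) and 36 lower (0.191%). Leaving out 1 library moved these counts widely. In wild type they summed to 2428 with all libraries, 777 without water B, 981 without DSS C, 1283 without water A, 1602 without DSS A, 2122 without DSS B and 2702 without water C. In Lao1 knockout they summed to 37 with all libraries, 1 without DSS B, 3 without DSS A, 6 without water C, 9 without water B, 84 without water A and 346 without DSS C. These counts do not themselves compare the genotypes. Wild-type libraries differed in mitochondrial mRNA share, at 6.89% to 9.08% with water and 26.1% to 44.9% with DSS, a separation that the DKO libraries lacked. Wild-type DSS C also had the fewest genes with at least 1 count, at 21185. Over 17228 genes, fold change had a Spearman correlation with transcript length of -0.17 in wild type, -0.009 in DKO and 0.07 in Lao1 knockout. The part of these differences in the calls was not tested. Across the 18848 genes, DKO fold changes had a Spearman correlation of 0.53 with those of Lao1 knockout and 0.22 with those of wild type (Pearson 0.36 and 0.09). The contrasts share no library, but genes are not independent replicates, and so these are descriptions.

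Tested directly, the DSS response of DKO colon differed from that of wild type for 11 genes, 6 with a higher fold change in DKO (0.0318%) and 5 with a lower one (0.0265%). Fer1l6 was the gene among them that was also called in DKO. Its log2 fold change was 1.24 ± 0.132 in DKO, 0.73 ± 0.131 in Lao1 knockout (adjusted p = 0.0351) and 0.02 ± 0.131 in wild type, and the interaction was 1.22 ± 0.185 (SE; edgeR adjusted p = 0.0328). The level of Fer1l6 in wild-type colon was 46.2 ± 3.52 CPM with water and 47.0 ± 4.64 CPM with DSS, so that DKO colon lay below it with water (29.9 ± 3.44) and above it with DSS (70.8 ± 6.79; SD, n = 3). The response of Bcas1 did not pass this test (adjusted p = 0.156), nor did that of 9530053A07Rik (adjusted p = 0.0987). Those of Fcgbp and Clca1 did not pass either (edgeR adjusted p = 0.244 and 0.308). The log2 fold changes of Fcgbp and Clca1 were 0.45 and 0.48 in wild type, and 0.54 and 0.46 in Lao1 knockout.

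For the other 10 genes the wild-type response was the larger. Arntl, the core clock activator also called Bmal1, fell in wild type by 2.17 on the log2 scale and in Lao1 knockout by 1.22, and had -0.45 ± 0.178 in DKO, with 26.0, 26.4 and 28.3 CPM on water and 23.01, 18.2 and 17.9 CPM on DSS. Clock transcripts follow the time of day, the hour of collection is not given in the sources used here, and its part in the difference was not tested. Cldn8, a sealing claudin of the distal colon, and Itpkb, an inositol kinase, fell in wild type by 2.21 and 2.18, and had -0.47 ± 0.196 and 0.28 ± 0.264 in DKO. Mt2, a metal-binding metallothionein, rose in wild type by 2.75 ± 0.280 and had 0.44 ± 0.263 in DKO and 0.85 ± 0.264 in Lao1 knockout. Its water level was 107 ± 21.2 CPM in wild type, 319 ± 78.7 in DKO and 295 ± 73.3 in Lao1 knockout (SD). B2m, the light chain of MHC class I, rose in wild type by 0.90 ± 0.158 and had -0.46 ± 0.157 in DKO, at 1039, 908 and 815 CPM on water and 547, 704 and 763 CPM on DSS. Trim12c and Trim12a, tripartite motif genes, and LOC115488509 had higher fold changes in wild type, and Npy4r, a receptor of pancreatic polypeptide, and Hr, a transcriptional corepressor, had lower ones. With water, B2m was at 509 CPM in wild type, 921 in DKO and 689 in Lao1 knockout, and Npy4r at 5.72, 0.994 and 1.56. Water levels of Itpkb were closer, at 22.9, 18.7 and 19.3 CPM. The test of the response does not separate a difference in water level from one in DSS level.

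**Figure D4:**
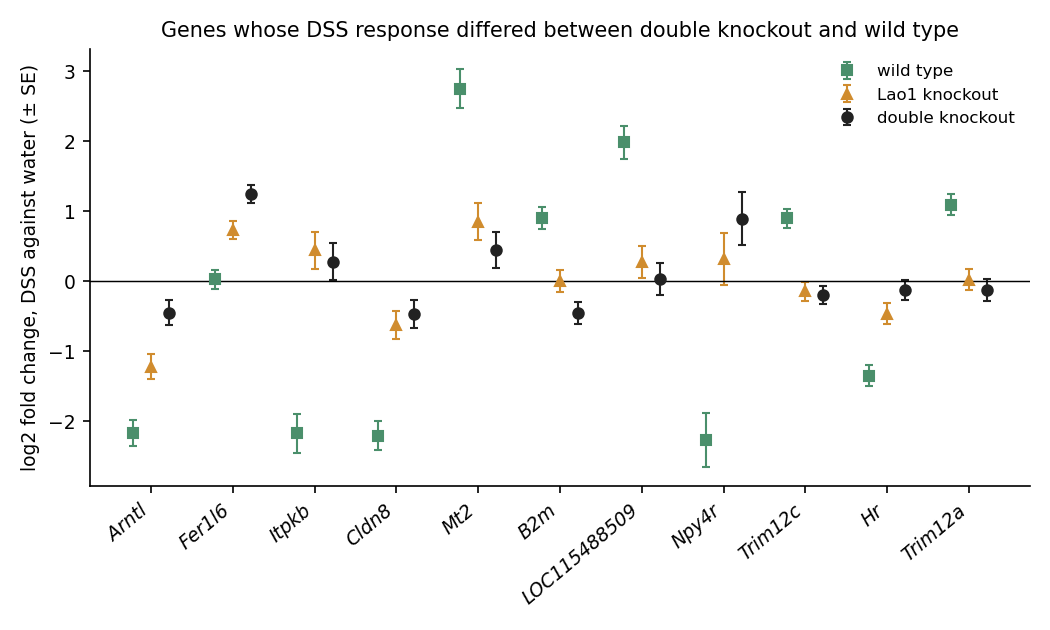
Log2 fold change with DSS (y axis, bars SE, n = 3 per group) of the 11 genes (x axis) whose response differed between double knockout and wild type, in wild-type (squares), Lao1 knockout (triangles) and double knockout colon (circles). Fer1l6 is the gene with a response near 0 in wild type and above 1 in double knockout; for the other 10 the wild-type value lies farther from 0.

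These 11 calls were not stable to the choice of libraries. Each passed in 2 to 4 of the 12 fits that left out 1 DKO or wild-type library, and the count of calls ranged from 0 to 148. It was 0 without any 1 of DKO water A or C, DKO DSS A, B or C, wild-type water A or B, or wild-type DSS C, the library with the 44.9% mitochondrial share. It was 1 without wild-type DSS A, 18 without DKO water B, 69 without wild-type DSS B and 148 without wild-type water C. The adjusted p-values of the 11 stayed at or below 0.162 in these fits, and the log2 fold difference of Fer1l6 lay between 1.16 and 1.33.

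MHC class I and immunoproteasome genes were lower in DKO colon for 7 of 18 members at an unadjusted p under 0.05, and higher for 0, with no member called. Over all genes, 5.44% were lower at that p. The list's median log2 fold change was -0.36 in DKO, 0.56 in wild type and -0.01 in Lao1 knockout. In wild type 10 members were called higher, beside 6.29% of all genes. The wild-type median was 0.53 to 0.64 when 1 wild-type library was left out, and the called members numbered 2 without wild-type water B, 4 without DSS A, 5 without water A and 6 without DSS C. The summed level in DKO was 4869.6, 4088 and 3628 CPM with water and 3156, 3385 and 3524 CPM with DSS, highest in water replicate A. Without that library the DKO median was -0.08, and 0 members were lower and 1 higher at an unadjusted p under 0.05; without DSS replicate A, 1 was lower, and without DSS replicate B, 4 were. H2-K1, a classical MHC class I heavy chain, had 1279, 1189.8 and 1019 CPM with water and 829, 847 and 871 CPM with DSS.

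Clock genes were not called in DKO colon. Of 20 tested, 4 were higher and 2 lower at an unadjusted p under 0.05, beside 4.14% and 5.44% of all genes. In wild type 8 were called higher and 4 lower, beside 6.29% and 6.59% of all genes. As for Arntl, the hour of collection is not given in the sources used here. In DKO the 4 became 2 without water A, and the 2 became 1 without water C, DSS B or DSS C. Dbp, an output factor of the clock, had 22.1, 29.4 and 29.4 CPM with water and 50.2, 49.2 and 55.1 CPM with DSS in DKO, a log2 fold change of 0.93 ± 0.357 against 3.57 ± 0.392 in wild type. The difference between these 2 responses did not pass its own test (edgeR adjusted p = 0.0772). Npas2, a partner of Arntl, had 26.6, 28.4 and 29.6 CPM with water and 20.5, 17.9 and 15.4 CPM with DSS.

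Between DKO and Lao1 knockout colon, the DSS response differed for 0 genes (0%; edgeR, 268 at an unadjusted p under 0.05, and 0 by DESeq2). Against the mean response of wild type and Lao1 knockout, it differed for 0 genes (0%; 1009 at an unadjusted p under 0.05, and 13 by DESeq2). Among genes with lower values in DKO, Cyp2c55 had -1.004 ± 0.174 in DKO and -1.05 ± 0.174 in Lao1 knockout, and Sgk1 had -1.36 ± 0.244 and -1.34 ± 0.244, beside -1.40 ± 0.244 in wild type. Of the 12 lower genes chosen by p in DKO, 6 passed the adjusted threshold in Lao1 knockout and 3 in wild type. Over all genes, 0.191% were called lower in Lao1 knockout and 6.59% in wild type. Calls in these genotypes moved widely when 1 library was left out, so the 6 and the 3 do not compare the genotypes. A p that misses the threshold does not show that the genotypes responded alike.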

How the data were processed

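Libraries were stranded mRNA preparations of whole colon RNA read as paired ends, per the labels' protocols. Per the submitters' processing notes, the tools were HISAT2 2.1.0, Trimmomatic 0.38 and FastQC 0.11.7, then R 4.3.2 with DESeq2 1.42.1, and StringTie 2.1.3b, on build GRCm38 (mm10). The authors deposited raw counts per gene, with 45777 genes and 18 libraries, and totals of 26003174 to 36553193 counts per library.

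From these counts, edgeR 4.0.16 (R 4.3.3) was fitted to the 6 group means with filterByExpr (18848 genes kept), TMM factors and robust quasi-likelihood tests. The threshold was a Benjamini-Hochberg adjusted p of 0.05. CPM values used TMM-scaled totals over the tested genes, and log2 fold changes are DSS against water. The procedure was tested on simulated counts. Alternatives were DESeq2 1.42.0, limma voom 3.58.1, other scalings, filters, sample sets and, chosen after seeing the depths, thinned counts. Named genes were those past the threshold, up to 12 each way by p and 6 by size among genes of at least 1 CPM without overlap, up to 8 interaction genes, and up to 4 per list; the remaining interaction genes and some list members were named after their values were seen. The members and the 50 gene lists were chosen with earlier results of these data known. Positions come from RefSeq, which matched 18340 tested symbols. Some genes are not reported here.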

Additional observations from a re-analysis of the deposited data

Results flagged for a closer look

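The DSS response differed between double knockout and wild-type colon, by a test of the difference itself, for 11 genes. As log2 fold change in double knockout minus that in wild type, the higher differences were 1.72 for Arntl, 1.22 for Fer1l6, 2.45 for Itpkb, 1.74 for Cldn8, 3.16 for Npy4r and 1.22 for Hr. The lower differences were -2.31 for Mt2, -1.36 for B2m, -1.95 for LOC115488509, -1.10 for Trim12c and -1.22 for Trim12a. Their edgeR adjusted p-values lay between 0.0328 and 0.0452.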

How the results depend on the processing

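Against 3 genes called in double knockout colon, DESeq2 called 181 (2 of the 3, with no adjusted p for 9530053A07Rik), no filter on low counts 13, the 6 libraries alone 33 and the replicate block 1; leaving out a library gave 1 to 2. Against 11 genes for the difference from wild type, DESeq2 called 492, limma voom 7, the 12 libraries alone 6, the replicate block 152, thinned counts 17, and leaving out a library 0 to 148. Against 0 for the difference from Lao1 knockout, its 12 libraries alone gave 1 and leaving out a library 0 to 1. Against 0 for the difference from the mean of both, DESeq2 gave 13 and leaving out a library 0 to 1. The cause was not tested. The fits without 1 wild-type or Lao1 knockout library for the DSS contrasts within those genotypes, and the thinned counts, were chosen after seeing the data. RLE factors, the removal of mitochondrial mRNAs, a stricter filter, thinned counts and limma voom each called 3 genes in double knockout colon. Same-letter libraries in double knockout colon correlated at 0.263, 0.184 and 0.066, in wild type at 0.193, 0.165 and 0.217, and in Lao1 knockout at -0.299 to 0.036. In double knockout and wild type each library correlated best with its own letter, a hint of pairing from the data. A double knockout pair and all Lao1 knockout pairs lay below 0.1, so the letters were not taken as pairs across the study. With the replicate block within genotype, chosen after seeing these correlations, wild type gave 2613 calls in place of 2428 and Lao1 knockout 123 in place of 37. The mitochondrial share difference moved by less than the replicate SD under each of its 7 alternatives, between 1.22 and 6.43 points. Of 449 recomputed list medians, 45 moved by more than the replicate SD. In counts simulated for the double knockout comparison on 18651 genes, 14% of genes changed 1.5-fold were called, 62% of those changed 2-fold and 94% of those changed 4-fold. The changed genes had a mean above 1 CPM, and all other genes had the same mean in all 18 libraries. Counts were drawn independently, without shifts that many genes of a library share, so these rates need not hold in the data.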
